A study of Mus musculus with 6 samples.

Results

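The clustered histone genes of mouse supply the bulk histones of new chromatin, and their RNA was compared between group 1 innate lymphocytes of the kidney. The members were the rows of the count table whose symbol names an H2A, H2B, H3 or H4 gene of the clusters (H2ac, H2bc, H3c or H4c with a number) or 1 of the linker histones H1f1 to H1f5, without pseudogenes marked as such. They came to 58 of 23841 gene rows, with 5 H1, 15 H2A, 16 H2B, 10 H3 and 12 H4 genes. Members were picked by symbol alone, but the family was chosen with earlier results of these data known.

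Cells came from the kidneys of naive wild-type C57BL/6 mice, with no allele or treatment beside the wild type and no age given. Type 1 innate lymphoid cells (ILC1), tissue lymphocytes related to natural killer cells, were sorted from NK1.1+NKp46+CD3- cells as CD49a+ with low or intermediate CD49b. Conventional natural killer cells (cNK), circulating cytotoxic lymphocytes, were sorted from the same gate by high CD49b. Each population had 3 libraries from pools numbered 1 to 3, of an unstated number of mice, so that the spread between libraries may be partly technical. Sorting from digested, CD45-enriched kidney leaves residual cells possible. A level per library of bulk RNA cannot tell fewer cells of a kind, such as dividing cells, from less RNA per cell.

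Most histone mRNAs of this family are made in S phase, when DNA replication needs histones in bulk. Their genes lack introns, are packed in clusters and are often arranged as head-to-head H2A and H2B pairs. Their mRNAs end in a short conserved stem-loop in place of a poly(A) tail. Slbp, the stem-loop binding protein, acts there in processing and translation. Some histone genes also give longer, polyadenylated transcripts, described in differentiated cells. Variant histones such as H2A.Z are made outside S phase from genes elsewhere in the genome.

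On GRCm38 (GENCODE M21), 24 members lay on chromosome 13 between 21715763 and 22043676, 29 on chromosome 13 between 23531050 and 23934156, and 5 on chromosome 3 between 96219865 and 96263311. The histone stem-loop was sought on the transcript strand of the M21 models by its conserved letters, with the variable bases left free. It was found in 39 of 58 members (67.2%), against 0.747% of 21951 protein-coding genes. A model without it can end before it, though H2bc4, H2bc21, H2bc23 and H2bc24 lacked it in models of 1156 to 2620 bases. The commonest form, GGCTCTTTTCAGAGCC, stood in 21 members, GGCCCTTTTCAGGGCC in 6 and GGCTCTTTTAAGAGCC in 5. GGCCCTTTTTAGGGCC and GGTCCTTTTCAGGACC stood in 2 each, and 3 further forms in 1 each. The sequences below show the stem-loop, in capitals, of members whose levels are given later, one of the highest H2A genes first and the member most shifted toward ILC1 last.
H2ac23, chr13:21810893-21810918, plus strand: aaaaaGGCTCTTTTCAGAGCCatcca
H4c4, chr13:23581945-23581970, plus strand: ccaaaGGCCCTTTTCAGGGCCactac
H4c11, chr13:21735432-21735457, plus strand: ctaaaGGTCCTTTTCAGGACCaccac
H3c7, chr13:23544927-23544952, plus strand: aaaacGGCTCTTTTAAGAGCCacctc
H4c14, chr3:96262934-96262959, minus strand: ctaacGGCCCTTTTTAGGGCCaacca

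Library totals ran from 22633440 to 28327265 counts, and levels are given as CPM, counts scaled to a library total of 1000000, in which 1 count was worth 0.0353 to 0.0442. As a check of the labels, 8 of 8 cNK markers were called higher in cNK and 8 of 8 ILC1 markers in ILC1. Mitochondrially encoded genes held 1.38, 2.25 and 6.53% of counts in ILC1 pools 1 to 3 and 3.15, 12.7 and 10.4% in cNK pools 1 to 3. Kidney epithelial markers held 0.156, 0.101 and 0.395% in ILC1 and 0.179, 0.622 and 0.533% in cNK, with 0 of 18 called. Still, 17 of the 18 had a log2 fold change of ILC1 over cNK below 0, with a median of -1.95. In edgeR 8 of them had an unadjusted p under 0.05 toward cNK and 0 toward ILC1 (6.63 and 11.4% over all genes). Mononuclear phagocyte markers held 0.541 to 1.11% in ILC1 and 0.225 to 0.261% in cNK, with 9 of 24 called higher in ILC1 and 1 in cNK. B cell markers held 0.0587 to 0.0746% and 0.0137 to 0.0200%, and T cell markers 0.0729 to 0.105% and 0.0406 to 0.0473%. No list had a marker at 0 in all libraries of a population. The part of these cells in the histone levels was not tested.

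For most clustered histone genes the fold change pointed toward cNK, but few passed the test. The 58 genes together made up 264.6, 507.5 and 479.9 CPM in ILC1 pools 1 to 3 and 404.2, 672.8 and 641.3 CPM in cNK pools 1 to 3. These sums overlapped, since cNK pool 1 lay below ILC1 pools 2 and 3. Of all members, 22 averaged under 1 CPM in both populations and 8 averaged over 10 CPM in at least 1 of them. A filter on low counts left 51 for the test, and the 7 left out (H2ac15, H2ac21, H2bc1, H2bc14, H3c8, H4c2 and H4c6) held at most 22 counts in any library.

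In edgeR's quasi-likelihood test over 16144 genes with Benjamini-Hochberg adjustment, 2 of the 51 members were higher in cNK and 0 were higher in ILC1. Over all genes 5.76% were called, 1.69% toward cNK and 4.07% toward ILC1. The 2 calls toward cNK in this unpaired fit were 3.92% of the 51 members, against that 1.69%, and are too few to read as a difference. With pool number as a block edgeR called 11 of the 51 members and 675 of 16144 genes toward cNK. The labels do not say whether pools of a number share mice. An unadjusted p under 0.05 was found toward cNK for 14 members (27.5%, background 6.63%) and toward ILC1 for 0 (background 11.4%). The log2 fold change of ILC1 over cNK was below 0 for 47 of 51 members (background 49.2%), with a median of -0.83 against 0.01 over all genes. These fold changes use TMM scaling (factors 1.03 to 1.11 in ILC1 and 0.838 to 1.02 in cNK). In unscaled mean CPM 42 of 51 members were lower in ILC1, and H1f2, H2bc6, H3c4, H4c1 and H4c11 had a fold change below 0 with a slightly higher mean CPM in ILC1. All 3 cNK libraries lay above all 3 ILC1 libraries for 12 tested members (background 5.33%), of which 9 were H2A, 2 H2B and 1 H1. The reverse held for H3c7 and H4c14 alone (background 22%). These counts and their backgrounds use unscaled CPM, and with TMM scaling the libraries of H3c7 overlapped.

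**Figure D1:**
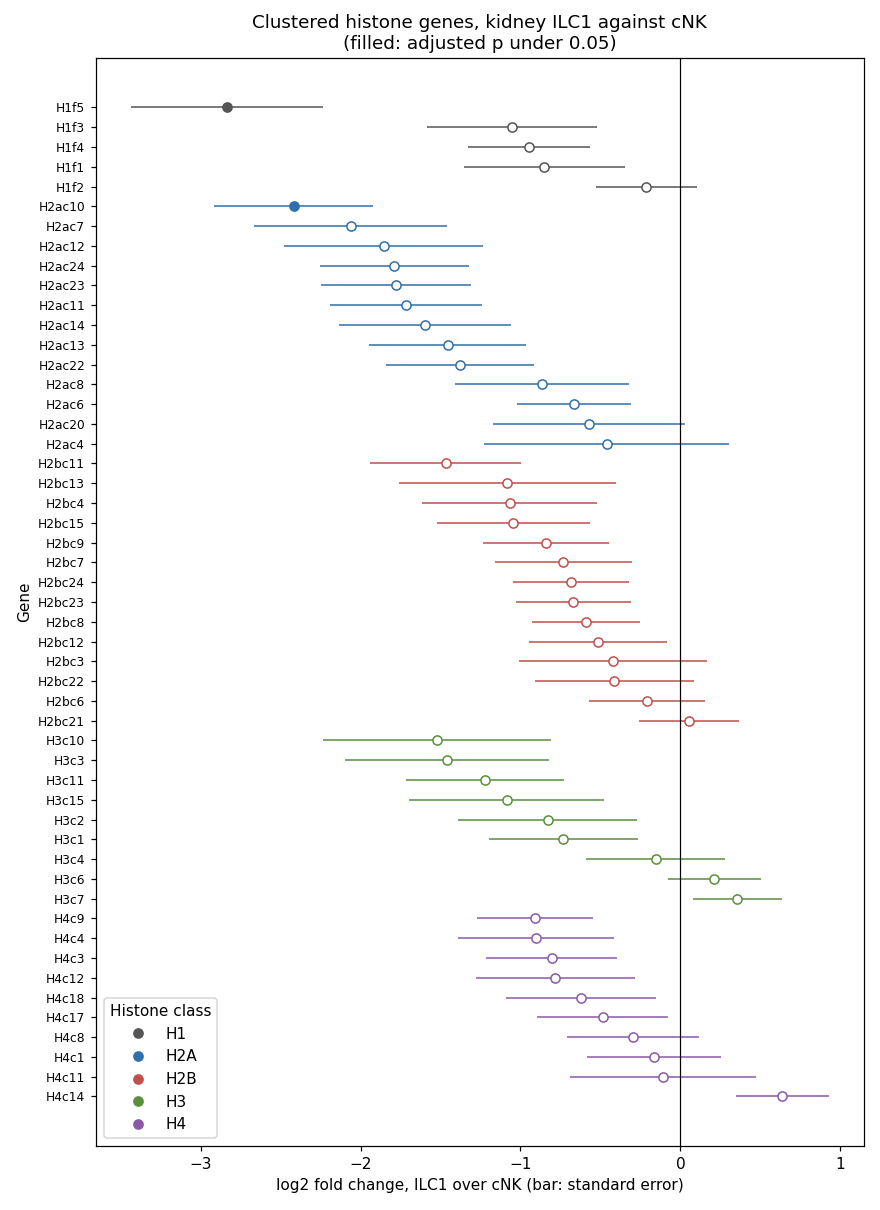
Log2 fold change of ILC1 over cNK (horizontal axis) for the 51 tested clustered histone genes by class, with bars of 1 standard error and filled points for an adjusted p under 0.05. The points of 47 genes lie left of 0, those of all 13 tested H2A genes among them, and the 2 filled points are H1f5 and H2ac10.

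The mitochondrial share of the libraries moved in part with the histone levels. ILC1 pool 1, of the lowest share, had the lowest histone sum, and cNK pool 2, of the highest share, had the highest. Between these the order differed, since ILC1 pool 2, at 2.25%, had a larger sum than ILC1 pool 3, at 6.53%, and cNK pool 1, at 3.15%. With that share as a covariate edgeR called 0 members, the median log2 fold change was -0.28 and 34 of 51 members lay below 0. Over all 16144 genes tested, that fit called 315 toward cNK and 610 toward ILC1, and 48.5% lay below 0. With the kidney epithelial share as covariate, 0 members were called, the median was -0.44 and 40 lay below 0. Over all genes, 283 were called toward cNK and 606 toward ILC1, with 48.95% below 0. Leaving out both ILC1 pool 1 and cNK pool 2 gave 0 called members, a median of -0.35 and 37 of 51 below 0. That fit called 136 of 16457 genes toward cNK and 258 toward ILC1, with 49.5% below 0. ILC1 pool 3 and cNK pool 1 stand the other way round in mitochondrial share, at 6.53 and 3.15%. Between them the sum of all members was 479.9 CPM in the ILC1 library and 404.2 CPM in the cNK library. The H2A sum was 43.9 CPM in that ILC1 library and 79.4 CPM in that cNK library. This sets 1 library against 1. Since the share was higher on average in cNK, its part and that of the population cannot be told apart here.

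**Figure D2:**
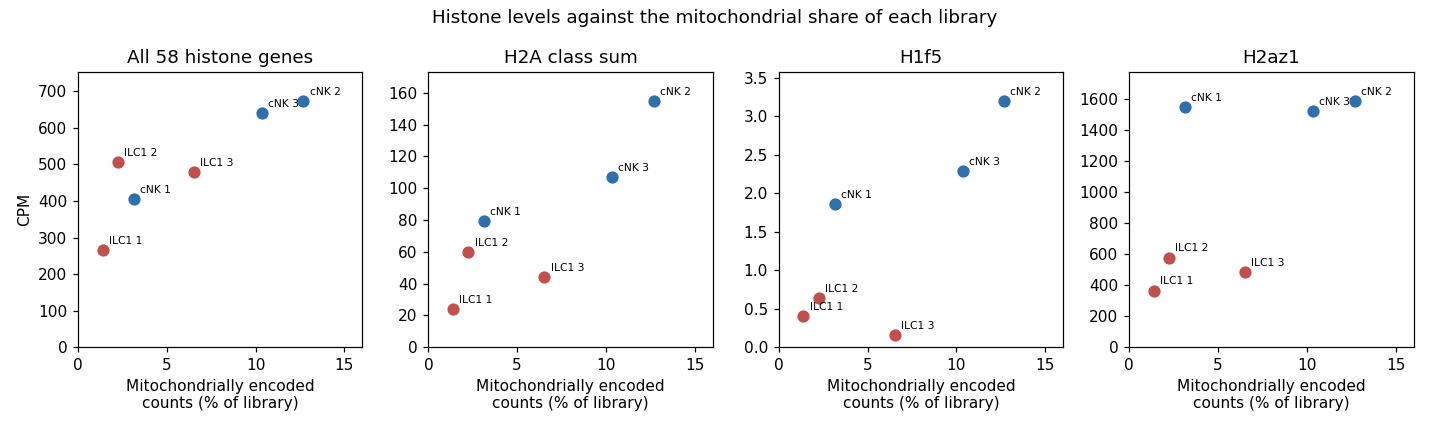
CPM (vertical axes) of all 58 histone genes, of the H2A genes, of H1f5 and of the variant H2az1 against the percentage of mitochondrially encoded counts in each of the 6 libraries, red for ILC1 and blue for cNK. The sum of all genes is lowest in ILC1 pool 1 at 1.38% and highest in cNK pool 2 at 12.7%. The H2A, H1f5 and H2az1 values of cNK pool 1, at 3.15%, lie above those of ILC1 pool 3, at 6.53%, each a single library.

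Linker histones, which bind the DNA between nucleosomes, differed among themselves. H1f5 stood at 0.398, 0.635 and 0.160 CPM in ILC1 and 1.86, 3.19 and 2.29 CPM in cNK. Every cNK library lay above every ILC1 library, and the log2 fold change of -2.83 ± 0.60 (SE) was the largest of any member (edgeR adjusted p = 0.0409). The call held with ILC1 pool 3 left out (adjusted p = 0.0402). It did not hold with ILC1 pool 1 (0.115) or pool 2 (0.0584) left out, nor with cNK pool 1 (0.0575), pool 2 (0.138) or pool 3 (0.1435). With the mitochondrial share as covariate the adjusted p was 0.141. No 100-base stretch of H1f5 occurred in another member, a length set here, since no read length is given.

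H1f2 was the most abundant clustered histone per kb of exon, at 115 CPM per kb in ILC1 and 113 in cNK. It stood at 118, 207 and 212 CPM in ILC1 and 137, 170 and 222 CPM in cNK, with overlap and a log2 fold change of -0.21 ± 0.32. This gene alone made up 42.9% of clustered histone counts in ILC1 and 30.8% in cNK. Of the members, only H1f2 appeared in the 2 lists of 2000 highest genes of the authors' deposited table, at rank 908 for ILC1 and 829 for cNK. H1f4 stood at 15.2, 32.6 and 28.4 CPM in ILC1 and 28.5, 45.98 and 50.2 CPM in cNK, with overlap (log2 fold change -0.95 ± 0.38, edgeR adjusted p = 0.256). H1f3 and H1f1 had log2 fold changes of -1.05 ± 0.53 and -0.85 ± 0.50, without a call. The H1 sum was 211 ± 64.5 CPM in ILC1 (SD, n = 3) and 231 ± 56.7 CPM in cNK, and without H1f2 it was 31.9 ± 12.1 and 54.5 ± 14.9 CPM, with overlap in both cases.

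The H2A genes, which encode a core histone paired with H2B in the nucleosome, were the class most shifted toward cNK. Their sum was 23.95, 59.7 and 43.9 CPM in ILC1 and 79.4, 155 and 107 CPM in cNK. The populations did not overlap, and the mean of cNK was 2.68 times that of ILC1. All 13 tested H2A genes had a log2 fold change below 0, with a median of -1.60, and 9 had an unadjusted p under 0.05 in edgeR. Each of those 9 shared 63.6 to 92.7% of its 100-base stretches with another member, so they may not be separate measurements. The other tested H2A genes, H2ac20, H2ac6, H2ac8 and H2ac4, shared 1.19, 7.68, 30.7 and 52.4%. Their log2 fold changes were -0.57, -0.67, -0.87 and -0.46.

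H2ac10 was the called H2A gene. It stood at 0.133, 0.247 and 0.199 CPM in ILC1 and 0.802, 1.10 and 0.803 CPM in cNK, from 3 to 7 counts against 20 to 29. Its log2 fold change was -2.42 ± 0.50 (edgeR adjusted p = 0.0357). The call did not hold when any 1 library was left out, with adjusted p from 0.0674 to 0.166. Those values were 0.129, 0.0869 and 0.0674 without ILC1 pools 1 to 3 and 0.0684, 0.166 and 0.1435 without cNK pools 1 to 3. Of the 100-base stretches of its model, 65.3% also occurred in another member.

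H2ac24 and H2ac23 carried most of the H2A reads. H2ac24 stood at 8.35, 22.5 and 16.9 CPM in ILC1 and 31.7, 63.2 and 44.1 CPM in cNK (log2 fold change -1.79 ± 0.47, edgeR adjusted p = 0.0850). H2ac23 stood at 8.26, 22.4 and 16.98 CPM in ILC1 and 31.3, 62.9 and 43.5 CPM in cNK (log2 fold change -1.78 ± 0.47, edgeR adjusted p = 0.0881). Both sets of libraries were fully apart, yet neither gene passed the threshold. DESeq2's Wald test called both (adjusted p = 0.00310 and 0.00352).

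Those copies cannot be read as separate measurements. Their counts in ILC1 were 189 and 187, 637 and 633, and 425 and 426, and in cNK 870 and 858, 1664 and 1655, and 1098 and 1082. They differed by less than the sampling noise of separate reads (chi-square 0.250 over 6 libraries), and 92.2 and 92.7% of their 100-base stretches occurred in another member. H2bc23 and H2bc24, the H2B genes beside them, were likewise closer than sampling noise (chi-square 0.122), while H4c17 and H4c18 were not (16.7). Without H2ac24 the H2A sum was 26.6 ± 10.8 CPM in ILC1 and 67.4 ± 22.2 CPM in cNK. Without both H2ac23 and H2ac24 it was 10.7 ± 3.82 and 21.5 ± 6.30 CPM, still with no overlap. Over the whole family, 21 of 58 members shared more than 50% of their 100-base stretches with another.

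H2ac11, next in level per kb among the H2A genes, stood at 1.502, 3.71 and 2.27 CPM in ILC1 and 5.18, 9.58 and 6.10 CPM in cNK. Its libraries did not overlap (log2 fold change -1.72 ± 0.48, edgeR adjusted p = 0.101). H2ac7, H2ac12, H2ac14, H2ac13 and H2ac22 were also separated, at under 2 CPM in every library, with log2 fold changes of -2.06, -1.86, -1.60, -1.46 and -1.38. M21 lists H2ac14 as an unprocessed pseudogene, though its symbol carries no such mark. H2ac4 lay closest to 0 (-0.46 ± 0.77), at 0.177, 0.635 and 0.478 CPM in ILC1 and 0.146, 0.608 and 0.763 CPM in cNK.

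**Figure D3:**
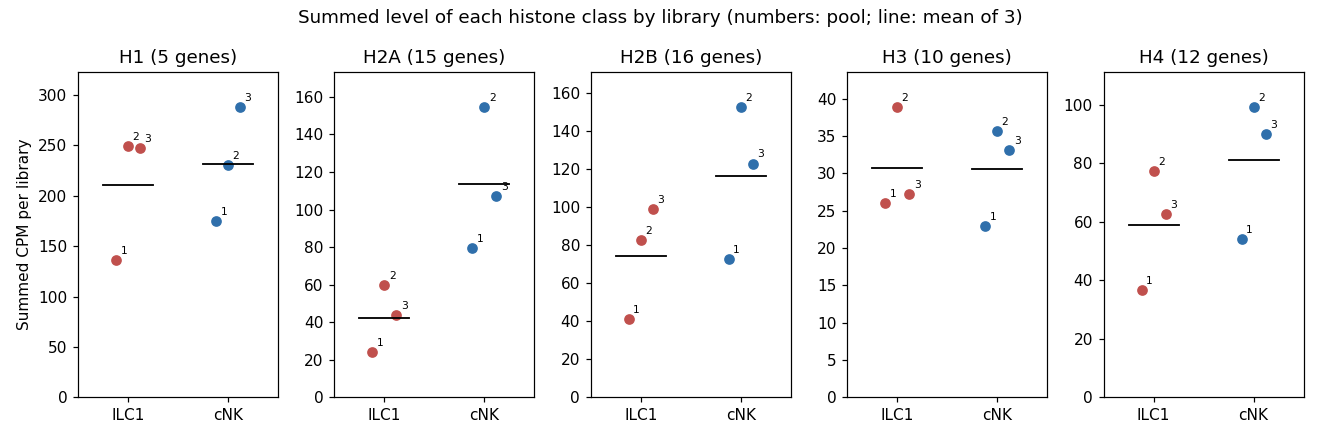
Summed CPM of the H1, H2A, H2B, H3 and H4 genes (vertical axes, each from 0) in the 3 libraries of ILC1 (red) and cNK (blue), numbered by pool, with a line at the mean. The H2A sums of cNK, from 79.4 to 155, lie above those of ILC1, from 23.95 to 59.7, and the other classes overlap.

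H2B genes, the partners of H2A, showed a smaller shift. Their sum was 41.4, 82.6 and 98.9 CPM in ILC1 and 73.0, 153 and 123 CPM in cNK, with overlap. Of 14 tested, 13 had a log2 fold change below 0 (median -0.68) and edgeR called 0. H2bc4, the highest per kb, stood at 20.3, 51.9 and 66.2 CPM in ILC1 and 41.7, 111 and 88.2 CPM in cNK (log2 fold change -1.07 ± 0.55, edgeR adjusted p = 0.370). The fold change of H2bc4 became -0.0005 once the mitochondrial share was fitted and -0.21 once the kidney epithelial share was. H2bc11 had the lowest p of the class and no overlap, at 0.751, 1.62 and 2.03 CPM in ILC1 and 2.59, 3.72 and 4.06 CPM in cNK (log2 fold change -1.47 ± 0.47, edgeR adjusted p = 0.149), and DESeq2's Wald test called it (adjusted p = 0.0360). H2bc15 followed at -1.04 ± 0.48 and H2bc8 stood at -0.59 ± 0.34. H2bc21, on chromosome 3, was level, at 4.37, 3.001 and 3.75 CPM in ILC1 and 3.54, 3.27 and 2.33 CPM in cNK (0.05 ± 0.31, and -0.04 with upper-quartile scaling).

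The head-to-head arrangement allowed H2A and H2B genes with a shared upstream region to be set side by side. There were 12 such pairs, 175 to 301 bases apart, and both genes were tested in 10. The H2A gene was the more shifted toward cNK in 9 of these 10, with a median log2 fold change of -1.59 for the H2A genes and -0.68 for the H2B genes. H2ac7 and H2bc7 had log2 fold changes of -2.06 ± 0.60 and -0.73 ± 0.43. H2ac23 and H2bc23 had -1.78 ± 0.47 and -0.67 ± 0.36, whereas H2ac11 and H2bc11 had -1.72 ± 0.48 and -1.47 ± 0.47. The exception was H2ac6 with H2bc4, at -0.67 ± 0.36 and -1.07 ± 0.55. Standard errors overlapped in several pairs, copies share reads, and the difference within pairs was not tested.

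**Figure D4:**
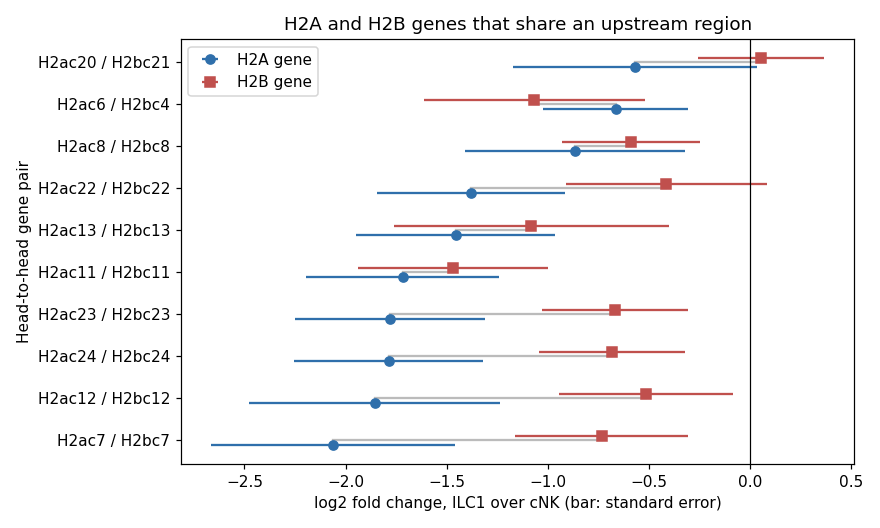
Log2 fold change of ILC1 over cNK (horizontal axis, bars of 1 standard error) for the H2A gene (blue circle) and the H2B gene (red square) of 10 head-to-head pairs. The blue circle lies left of the red square in 9 pairs, and H2ac6 with H2bc4 is the exception.

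The regions upstream of H2ac23 and of H2ac12 are shown, because there the fold changes of an H2A gene and its H2B partner were far apart. RefSeq promoter windows (GRCm38.p6), from 250 bases before to 50 after a start, were given for 51 of 58 members. They were searched on both strands for the letters ATTTGCAT (the octamer, bound by Oct-1 and known from H2B promoters), CCAAT and TATAAA. The octamer stood in 6 of 13 H2B and 5 of 14 H2A windows and in no H1, H3 or H4 window, against 1.74% of 32851 windows of all genes. Windows of a pair overlap, so a match can be counted for both genes. CCAAT stood in 43 of 51 members (37.4% of all windows), and in 3 of 11 H4 windows, and TATAAA in 32 of 51 (13.6%). The region between the RefSeq starts of H2bc23 and H2ac23 holds CCAAT on both strands and no octamer, and that between H2ac12 and H2bc12 holds CCAAT on both strands and an octamer. Both are written on the plus strand, with these letters in capitals.
H2bc23 to H2ac23, chr13:21810200-21810366, plus strand: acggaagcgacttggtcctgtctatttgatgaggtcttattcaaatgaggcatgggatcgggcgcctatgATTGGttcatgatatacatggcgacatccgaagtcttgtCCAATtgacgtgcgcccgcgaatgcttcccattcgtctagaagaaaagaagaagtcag
H2ac12 to H2bc12, chr13:22035644-22035820, plus strand: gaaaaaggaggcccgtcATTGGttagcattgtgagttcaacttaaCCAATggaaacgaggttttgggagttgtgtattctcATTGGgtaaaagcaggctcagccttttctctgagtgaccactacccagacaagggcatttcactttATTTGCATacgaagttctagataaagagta

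H3 genes encode a core histone whose tail carries many of the studied marks, and their summed level differed little while most members pointed toward cNK. Their sum was 26.0, 38.9 and 27.3 CPM in ILC1 and 22.9, 35.6 and 33.1 CPM in cNK. Of 9 tested, 7 had a log2 fold change below 0 (median -0.83), and the 2 above 0 were among the 3 highest of the class per kb. H3c6 stood at 10.8, 13.4 and 7.34 CPM in ILC1 and 7.54, 7.83 and 7.95 CPM in cNK (log2 fold change 0.21 ± 0.29). H3c7 stood at 7.91, 10.6 and 7.66 CPM in ILC1 and 5.61, 6.57 and 5.22 CPM in cNK (0.36 ± 0.28, edgeR adjusted p = 0.548). Its libraries did not overlap in unscaled CPM but did with TMM scaling. H3c1, the highest of the class per kb, stood at 3.27, 6.74 and 7.26 CPM in ILC1 and 4.52, 9.65 and 9.92 CPM in cNK (-0.73 ± 0.47). H3c11, H3c3 and H3c4 had log2 fold changes of -1.22 ± 0.50, -1.46 ± 0.64 and -0.16 ± 0.44, and edgeR called 0 of the 9 tested H3 genes.

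H4 genes, whose core histone pairs with H3, gave a sum of 36.8, 77.5 and 62.7 CPM in ILC1 and 54.2, 99.4 and 90.0 CPM in cNK, with overlap. Of 10 tested, 9 had a log2 fold change below 0 (median -0.55) and edgeR called 0. H4c4 stood at 15.1, 37.6 and 25.6 CPM in ILC1 and 22.8, 57.3 and 42.9 CPM in cNK (-0.90 ± 0.49), and H4c9 had the lowest p (-0.91 ± 0.36, edgeR adjusted p = 0.252). H4c17 and H4c18 stood at -0.49 ± 0.41 and -0.62 ± 0.47, and H4c11 at -0.11 ± 0.58. H4c14, on chromosome 3, was the member most shifted toward ILC1. It stood at 4.99, 5.19 and 4.43 CPM in ILC1 and 2.33, 2.62 and 3.05 CPM in cNK, without overlap, but did not pass the test (0.64 ± 0.29, edgeR adjusted p = 0.315). Its fold change stayed between 0.43 and 0.81 over all alternative settings, in none of which it was called.

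By position, the sums of the 24 genes of chromosome 13 from 21715763 on were higher in cNK. Those of the 5 genes of chromosome 3 were higher in ILC1 in unscaled CPM. The former summed to 37.2, 85.0 and 69.3 CPM in ILC1 and 103.5, 188 and 146 CPM in cNK, without overlap, and 22 of 22 tested had a log2 fold change below 0 (median -1.15). Without H2ac23 and H2ac24 the sums were 20.5, 40.2 and 35.4 CPM in ILC1 and 40.5, 62.3 and 58.4 CPM in cNK, just apart, and the ratio of cNK to ILC1 fell from 2.29 to 1.68. Reads matching several genes may remain in these sums. The 29 genes of chromosome 13 from 23531050 on had a median of -0.73, and their sums overlapped. The 5 genes on chromosome 3 summed to 10.3, 9.71 and 9.01 CPM in ILC1 and 6.63, 7.98 and 7.59 CPM in cNK, with 2 of 4 tested on either side of 0 and a median log2 fold change of -0.26. H4c14 and H2bc21 carried most of that sum. The log2 ratio of the chromosome 3 means was 0.39, and 0.15 with TMM-scaled CPM, in which the populations overlapped. The first region holds 8 of the 15 H2A genes, so position and class are not independent.

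The reach of the annotated model past the stem-loop was a feature that the symbols did not use. All 3 members with a found stem-loop and a log2 fold change above 0 (H3c6, H3c7 and H4c14) had models running over 100 bases beyond it, by 369, 365 and 1257 bases. Such models stood in 18 tested members with a found stem-loop, and 17 had models ending by it. The 3 are too few to read as a difference. Of the 18 members with such models the median log2 fold change was -0.63, with a range from -1.09 to 0.64. In 17 tested members with models ending by the stem-loop the median was -0.73 (-2.06 to -0.30), and in 16 without its letters -1.15 (-2.83 to 0.05). That last group mixes short and long models, from 312 to 2620 bases, the longest that of H2bc21, which was also above 0. The ranges overlapped widely, the limit of 100 bases was chosen after the models were seen, and the annotation that the authors counted with is not given in the sources used here. Whether the libraries were selected for poly(A) is not given either. Of 14 RNAs that lack a poly(A) tail, 5 were in the table, and they summed to 0.318 to 0.751 CPM in ILC1 and 0.988 to 1.41 CPM in cNK.

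Genes of replication and division were set beside the histones. Of 35 tested S phase and replication genes, 1 was higher in cNK and 0 in ILC1, with a median log2 fold change of -0.19. Of the 35, 26 lay below 0 and 6 had an unadjusted edgeR p under 0.05 toward cNK, with 0 toward ILC1. Over all genes, the background for this list and those that follow, 49.2% lay below 0. An unadjusted edgeR p under 0.05 was found for 6.63% toward cNK and 11.4% toward ILC1. Calls were 1.69% toward cNK and 4.07% toward ILC1, so 1 called gene is too few to read as a difference. The called gene was Rpa2, a subunit of the single-stranded DNA binding protein, at 53.0, 58.9 and 47.3 CPM in ILC1 and 90.3, 70.4 and 80.6 CPM in cNK (-0.81 ± 0.17, edgeR adjusted p = 0.0407). It lost the call without any 1 library (adjusted p = 0.121, 0.0590 and 0.0934 without ILC1 pools 1 to 3, and 0.0563, 0.123 and 0.192 without cNK pools 1 to 3). Pcna, the replication clamp, stood at 128, 210 and 163 CPM in ILC1 and 152, 172 and 162 CPM in cNK (-0.19 ± 0.25). Of 24 genes of G2 and mitosis 0 were called by edgeR, 3 had an unadjusted p under 0.05 toward cNK, and 23 lay below 0 with a median of -0.61. The topoisomerase Top2a stood at -0.77 ± 0.24 and the cyclin Ccnb1 at -0.74 ± 0.30. Mki67, the proliferation marker, stood at 7.78, 8.90 and 5.98 CPM in ILC1 and 6.52, 7.14 and 10.7 CPM in cNK (-0.33 ± 0.31).

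Genes that make and carry histone mRNA and protein gave no calls. Of 30 genes of histone mRNA transcription and processing edgeR called 0, with 1 at an unadjusted p under 0.05 in each direction (E2f1, -0.75 ± 0.25, and Smg1, 0.55 ± 0.20) and a median of 0.22. Slbp stood at 233 ± 39.1 CPM in ILC1 (SD, n = 3) and 219 ± 22.5 CPM in cNK (log2 fold change -0.13 ± 0.20). Npat, the coactivator of histone gene transcription, stood at 37.9, 20.1 and 20.1 CPM in ILC1 and 29.7, 12.6 and 15.9 CPM in cNK (0.22 ± 0.36). Of 22 histone chaperones edgeR called 0, with 0 at an unadjusted p under 0.05, and the 2 of lowest p were Asf1b (-0.57 ± 0.25) and Ssrp1 (0.60 ± 0.29). DESeq2 and limma-voom did not call Slbp, Npat, E2f1, Smg1, Asf1b or Ssrp1 either.

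The list set up as replication-independent histones, with H2ax, H2aw and H2bu2 among its genes, held 1 called gene. H2az1, which encodes the variant H2A.Z, stood at 365, 578 and 485 CPM in ILC1 and 1548, 1587 and 1522 CPM in cNK. The cNK libraries lay together and far above all ILC1 libraries, with a log2 fold change of -1.93 ± 0.25 (edgeR adjusted p = 0.00644). The call held in 15 of 16 alternative settings, among them each library left out (adjusted p = 0.0139 to 0.0434). The exception was the fit without both ILC1 pool 1 and cNK pool 2 (-1.67, adjusted p = 0.0613). The 12 tested genes of this list had a median of -0.30. H3f3b, which encodes the variant H3.3, stood at 1382, 2221 and 2058 CPM in ILC1 and 1557, 1824 and 1867 CPM in cNK (-0.12 ± 0.26).

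**Figure D5:**
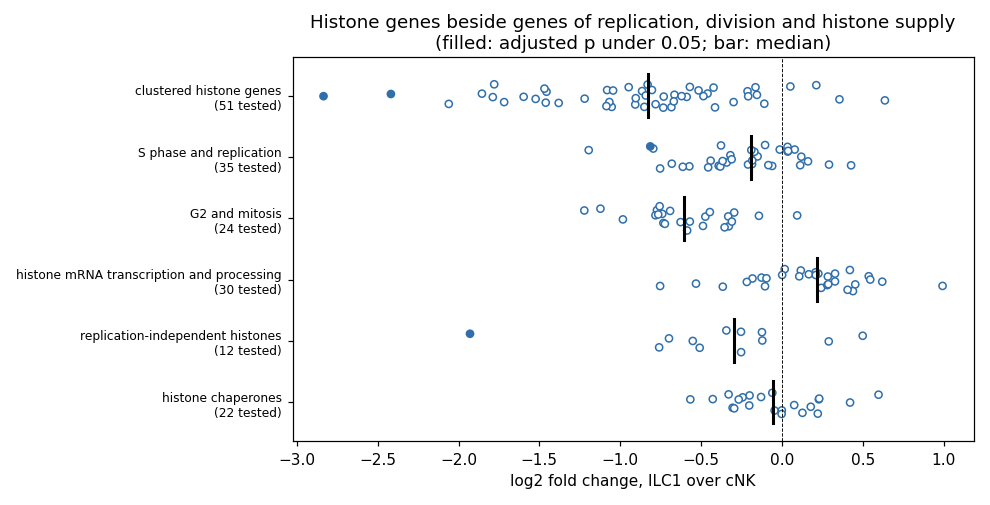
Log2 fold change of ILC1 over cNK (horizontal axis) for the tested genes of 6 lists, each point a gene, filled for an adjusted p under 0.05, with a bar at the median of the list. The clustered histone genes have a median of -0.83 and S phase genes of -0.19, and the filled point at -1.93 is H2az1.

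The genes whose profile over the 6 libraries was most like that of the summed histone counts were sought among all tested non-members. They were Gm50083, Ndufs6, Ndufa6, Fundc2 and Ndufs4, with Pearson correlations of log2 CPM from 0.991 to 0.995 over 6 libraries, which all share the library totals and the mitochondrial share. Ndufs6, Ndufa6 and Ndufs4 encode nuclear subunits of respiratory complex I, and Fundc2 a mitochondrial outer membrane protein. Ndufs6 stood at 53.8, 103 and 100.3 CPM in ILC1 and 78.7, 154 and 131 CPM in cNK, lowest in ILC1 pool 1 and highest in cNK pool 2 as the histone sum was. None of the 5 was called, with log2 fold changes from -0.81 to -0.50.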

How the data were processed

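For 6 libraries the table deposited by the authors holds raw read counts by gene, with the mean signal of each population that the authors deposited beside them and that was not used here, and 2 ranked lists of symbols. Tools and build, per the submitters' processing notes, were STAR 2.6.1, Trimmomatic 0.38, DESeq2 1.30.0 and GRCm38. In the sources used here no counting program, annotation, strand use or treatment of multiply matching reads is given. Antisense and near-identical genes are therefore uncertain. A row without gene was left out. H1f10 was no member, since the rule takes 1 digit.

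Counts were tested with edgeR 4.0.16 in R 4.3.3 (TMM scaling, filterByExpr, robust quasi-likelihood fit on population, Benjamini-Hochberg at 0.05). A log2 fold change is ILC1 over cNK, with a standard error from the F statistic. Levels are CPM of the library total, and exon lengths come from GENCODE M21. Likeness used log2(CPM + 0.1). Named members were those called, the 3 of highest level per kb, the 2 of lowest p and the 1 nearest 0 in each class, and the extremes. Others named as separated were chosen after their values were seen. The members and gene lists were chosen with earlier results of these data known. Alternatives were other scaling, filters and tests (DESeq2 1.42.0, limma 3.58.1), a pool block, covariates and left-out libraries. The samples were taken as unpaired.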

Additional observations from a re-analysis of the deposited data

How the results depend on the processing

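The count of clustered histone genes higher in cNK was 2, and 0 to 1 when 1 library was left out, 1 without a filter, with a stricter filter and with limma-voom, 0 with either covariate and with ILC1 pool 1 and cNK pool 2 both left out, and 7 with DESeq2's Wald test. Members higher in ILC1 were 0 in every setting run. Over all genes, 273 were higher in cNK and 657 in ILC1, with 93 to 672 and 214 to 695 when 1 library was left out, 647 and 1100 with DESeq2, and 136 and 258 without ILC1 pool 1 and cNK pool 2. That last setting and the sums without H2ac23, H2ac24 or H1f2 were chosen after seeing the data. The labels do not say that a number marks the same mice, so samples were not paired. Deviations from the population mean correlated between pools of the same number at r = 0.525, -0.127 and 0.059. ILC1 pool 3 and cNK pool 2, of different numbers, had r = 0.591. With 3 libraries per population these r cannot show whether pools shared mice. The histone sum was higher in cNK in each pool number, and with pool number as a replicate block edgeR called 11 members and 675 of all genes higher in cNK and 1107 higher in ILC1.

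Of uncalled members and list genes, some changed sign. With the mitochondrial share as covariate the log2 fold change was 0.23 for H1f2, 0.92 for H2ac4, 0.14 for H3c1, 0.31 for H3c4, 0.60 for H4c11, -0.33 for Npat, 0.0125 for Pcna and 0.17 for H3f3b. With the kidney epithelial share it was 0.12 for H1f2, 0.56 for H2ac4, 0.13 for H3c4, 0.45 for H4c11, -0.18 for Npat and 0.0764 for H3f3b. Without ILC1 pool 1 and cNK pool 2 it was 0.0606 for H1f2, 0.13 for H2ac4, 0.35 for H3c4, 0.71 for H4c11, -0.31 for Npat, 0.11 for Pcna and 0.17 for H3f3b. With upper-quartile scaling it was -0.0362 for H2bc21. Leaving out 1 library gave ranges of -0.48 to 0.027 for H1f2, -0.11 to 0.19 for H2bc21, -0.51 to 0.15 for H3c4, -0.0407 to 0.43 for H3c6, -0.51 to 0.37 for H4c11, -0.13 to 0.52 for Npat and -0.32 to 0.0747 for H3f3b. The cause was not tested. Members at under 1 CPM rest on few counts, which limits the precision.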
